A study of Mus musculus with 2 samples.

Results

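The 8 genes described here encode enzymes and a regulator of cholesterol synthesis: Hmgcs1, Idi1, Fdps, Fdft1, Sqle, Lss, Cyp51 and Insig1. They were chosen by name as sterol pathway genes present in both count matrices, with earlier results of these data known. All 8 were found among the 26124 genes listed. Their transcripts were measured in single cells of mouse bone marrow cultures, by counting unique molecular identifiers (UMIs, tags that mark single captured transcripts) at the 3′ end. Progenitors depleted of lineage-positive cells were taken from C57BL/6 mice aged 8 to 10 weeks and cultured with GM-CSF at 20 ng/ml. On day 3 the medium received albumin carrying 300 µM heme or albumin alone. Before this, the day 2 feed of both groups held GM-CSF at 40 ng/ml. GM-CSF is a growth factor under which such progenitors give dendritic cells, macrophages and neutrophils. Each group was 1 library, named here heme and control, and each library pooled cells of culture days 0, 3, 4, 5 and 7 that had been marked with antibody-bound hashtags. Days 0 and 3 precede the addition of heme, so the libraries' difference on these days is the background of the comparison. The sources do not describe whether the cells of days 0 and 3 were grown separately for each library, nor from how many mice they came.

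Cholesterol is built from acetyl-CoA through the mevalonate pathway, which leads to isoprenoid units, then to squalene, and then to a sterol ring that is trimmed to cholesterol. When sterols in the endoplasmic reticulum run low, the factor SREBP2 travels with its escort SCAP to the Golgi, is cleaved, and activates the genes of the pathway. INSIG proteins hold SCAP and SREBP2 back when sterols are plentiful. In myeloid cells, the balance between synthesis, uptake and efflux of cholesterol is under opposite control by SREBP2 and the oxysterol-sensing LXR factors.

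The 8 genes lie on 6 chromosomes in the GENCODE M21 annotation of GRCm38. Hmgcs1 (ENSMUSG00000093930) is at chr13:119690379-119708260 on the plus strand, and Idi1 (ENSMUSG00000058258) at chr13:8885501-8892451, also on the plus strand. Fdps (ENSMUSG00000059743) is at chr3:89093588-89101959 on the minus strand, Fdft1 (ENSMUSG00000021273) at chr14:63145150-63179578 on the minus strand and Sqle (ENSMUSG00000022351) at chr15:59315077-59331192 on the plus strand. Lss (ENSMUSG00000033105) is at chr10:76531588-76557138 on the plus strand, Cyp51 (ENSMUSG00000001467) at chr5:4081145-4104746 on the minus strand and Insig1 (ENSMUSG00000045294) at chr5:28071363-28078662 on the plus strand. All 8 are annotated as protein-coding.

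Promoter sequences of 5 of the 8 genes (Hmgcs1, Idi1, Lss, Cyp51 and Insig1) were present in the RefSeq promoter table of GRCm38.p6, each with 300 bases that begin 250 bases before an annotated start. Those of Hmgcs1, Cyp51 and Idi1 are shown because their genes represent the entry of the pathway, the sterol ring and the isoprenoid step. Letter patterns of 2 kinds were marked in capitals on either strand: TCACNCCAC, a form of the sterol regulatory element bound by SREBP, and CCAAT, which is bound by the SREBP partner NF-Y. CCAAT on the opposite strand reads ATTGG, and the patterns do not overlap in these windows. The Hmgcs1 window is chr13:119690101-119690400 (plus strand), the Cyp51 window chr5:4104648-4104947 (minus strand) and the Idi1 window chr13:8885356-8885655 (plus strand).
Hmgcs1: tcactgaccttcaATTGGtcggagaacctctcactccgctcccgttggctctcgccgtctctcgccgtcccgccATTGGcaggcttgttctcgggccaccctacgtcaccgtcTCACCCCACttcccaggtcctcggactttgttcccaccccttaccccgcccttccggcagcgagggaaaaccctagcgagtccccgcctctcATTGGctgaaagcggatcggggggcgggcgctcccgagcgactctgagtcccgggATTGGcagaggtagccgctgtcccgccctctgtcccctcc
Cyp51: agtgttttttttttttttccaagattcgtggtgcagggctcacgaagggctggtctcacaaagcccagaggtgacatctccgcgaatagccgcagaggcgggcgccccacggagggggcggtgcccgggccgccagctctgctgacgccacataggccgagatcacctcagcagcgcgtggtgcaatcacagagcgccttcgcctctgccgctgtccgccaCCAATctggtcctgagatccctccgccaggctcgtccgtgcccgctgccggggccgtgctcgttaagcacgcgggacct
Idi1: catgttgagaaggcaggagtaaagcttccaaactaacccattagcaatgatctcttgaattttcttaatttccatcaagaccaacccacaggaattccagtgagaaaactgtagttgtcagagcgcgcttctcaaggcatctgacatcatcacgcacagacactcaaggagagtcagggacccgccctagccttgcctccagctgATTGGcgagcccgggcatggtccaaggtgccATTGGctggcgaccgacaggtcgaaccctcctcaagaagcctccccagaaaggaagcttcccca
The Hmgcs1 window held TCACCCCAC, which began at position -137 from the start, and 4 matches of CCAAT, the Cyp51 window 1 match of CCAAT and the Idi1 window 2. The sterol pattern was found in 1 of the 5 windows (Hmgcs1) and in 1.24% of the 32851 windows of the table. Other forms of the sterol regulatory element were not searched for, so a window without this pattern can still hold one. CCAAT was found in 5 of 5 windows and in 37.4% of all windows. TGACNNNGC, the antioxidant response element bound by NRF2, was found in 0 of the 5 windows and in 12.4% of all windows. A match is a description of the letters in these windows.

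Between 598 and 2715 cells per day passed the filters in the control library, and between 1366 and 2481 among the heme cultures. On day 0, the filters kept 598 of 1716 hashtagged cells in the control library and 1366 of 1877 in the heme library. The day 0 values thus describe unequal parts of the cells of that day. UMI totals per library and day ranged from 6189203 to 34647365. Levels are given in CPM, the UMIs of 1 gene divided by all UMIs of that library and day and scaled to a common total, intervals are exact Poisson intervals at the 95% level that cover counting error only, and no difference has a replicate check because each group was 1 library. Of the kept cells, 33 barcodes occurred in both libraries, of 112 shared by the full matrices. The limit of 5000 detected genes removed 1.92% to 8.34% of the hashtagged cells per day in the control library and 16.4% to 33.9% in the heme library. Across genes with a mean of 10 CPM or more, the median log2 ratio of heme to control lay between 0.21 and 0.31 on the 5 days. Log2 ratios and fold limits below are relative to this median, whereas other ratios of heme to control are plain ratios of CPM. Hmox1 encodes the heme-degrading enzyme heme oxygenase 1. It differed between the libraries in cells hashtagged to the days before heme, with 1.94 and 133 CPM (control and heme) on day 0 and 37.3 and 161 CPM on day 3. By day 7, Hmox1 had 86.3 and 5201 CPM. All days of a library were pooled, and a share of free RNA from treated cells in the values of days 0 and 3 was not tested. Ribosomal protein UMIs took 14.5% to 26.7% of the total per day in the control library and 9.79% to 25.0% in the heme library, and their part in the shift of the median was not tested.

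Transcripts of most of the 8 genes were more abundant in the heme library on each day after heme. Summed over the 8 genes, without division by the median ratio of all genes, the control level was 625 CPM and the heme level 665 CPM on day 3. Of these sums, Fdps made up 296 CPM (control) and 219 CPM (heme), whereas each other member had a higher CPM in the heme library on that day. The sum was 473 (control) against 870 CPM (heme) on day 4, 449 against 793 CPM on day 5 and 459 against 880 CPM on day 7. The higher sum in the heme library was therefore present 1 day after heme and at every later harvest.

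Gene by gene, the median log2 ratio of heme to control, relative to all genes, was 0.08 and 0.13 before heme (days 0 and 3), and afterwards 0.92 (day 4), 0.76 (day 5) and 0.86 (day 7). On day 4, 7 of 8 members were higher past 1.5-fold, as were 10.4% of all genes tested. The exception was Fdps, whose log2 ratio was -0.15. On day 5, 6 of 8 were higher past this limit (10.8% of all genes), without Fdps and Insig1, and on day 7 again 6 of 8 (15.7% of all genes), without Fdps and Idi1. No member was lower past 1.5-fold on days 4, 5 and 7, where 17.9%, 15.8% and 19.6% of all genes were. Before heme, Hmgcs1 was higher past the limit on day 0, as 1 of 7 members tested against 16.2% of all genes, and 0 of 7 were higher on day 3 (7.7% of all genes). Fdps was lower past the limit on day 0, where 18.0% of all genes were lower, and on day 3, where 14.0% were. At a 2-fold limit, Hmgcs1, Lss and Cyp51 were higher on day 4 (1.75% of all genes), Hmgcs1 on day 5 (2.53%), and Hmgcs1 and Sqle on day 7 (6.48%), and none was lower (5.33%, 3.81% and 7.64% of all genes). On days 0 and 3 no member tested was past 2-fold higher (4.22% and 0.633% of all genes) or lower (4.54% and 1.52%). Lss entered these counts on days 4, 5 and 7 only, because its mean was under 10 CPM on days 0 and 3 and passed this minimum through its level in the heme library.

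Dividing the ratio of each day by that of day 3 takes out what already separated the libraries in the cells of that day. The median over the 8 genes was then 0.80 on day 4, 0.63 on day 5 and 0.67 on day 7 on the log2 scale. Of the 7 members that could be tested on both days, 4 were higher past 1.5-fold on day 4 (Hmgcs1, Idi1, Fdft1 and Cyp51), against 1.73% of all genes. On day 5, 3 were (Hmgcs1, Idi1 and Cyp51), against 3.92%, and on day 7, 5 were (Hmgcs1, Fdps, Sqle, Cyp51 and Insig1), against 10.2%. All 7 lay above 0 on each of these days, as did 40.9% of all genes on day 4 and 52.3% on day 7, with day 5 between these shares. Division by day 3 lowered the values of Hmgcs1, Sqle and Insig1, which were already higher in the heme library on that day, and raised that of Fdps.

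**Figure D1:**
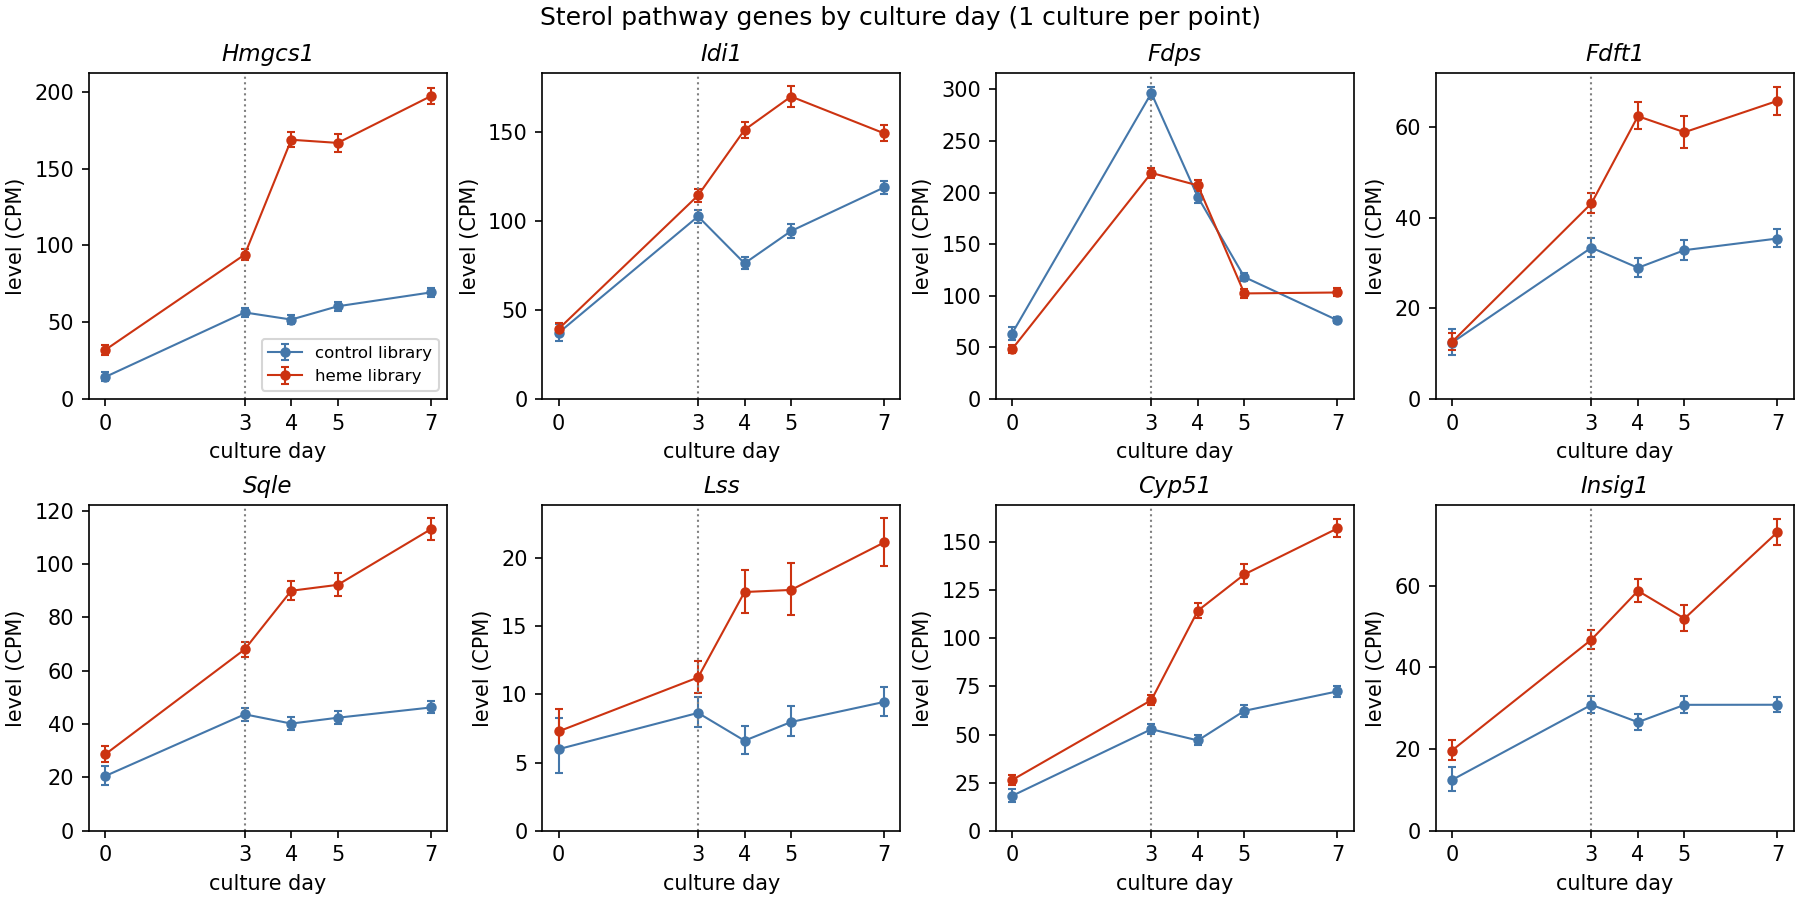
Level of each of the 8 genes (CPM, y axis from 0, scale per gene) by culture day (x axis) in the control library (blue) and the heme library (red), with 95% counting intervals; the dotted line marks day 3, when heme was added. For Hmgcs1 the libraries stood at 56.4 and 94.1 CPM on day 3 and at 69.4 and 197 CPM on day 7, whereas Fdps was lower on day 7 than on day 3 in both libraries.

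Hmgcs1 encodes the cytosolic HMG-CoA synthase, which forms HMG-CoA, the precursor of mevalonate. In the control library it stood at 14.4, 56.4, 51.8, 60.4 and 69.4 CPM on days 0, 3, 4, 5 and 7. In the heme library it stood at 32.0, 94.1, 169, 167 and 197 CPM. The heme library was higher on all 5 days, and the gap widened between days 3 and 4. The ratio of heme to control was 1.67 (1.57 to 1.77) on day 3 and 3.26 (3.07 to 3.47) on day 4, and it was 2.76 (2.60 to 2.93) on day 5 and 2.84 (2.71 to 2.98) on day 7. Of the 8 genes, Hmgcs1 had the highest log2 ratio relative to all genes on days 4, 5 and 7, with 1.47, 1.26 and 1.23.

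Idi1 and Fdps act on the isoprenoid units. Idi1 encodes isopentenyl diphosphate isomerase, which interconverts the building blocks, and its control levels were 37.2, 103, 76.3, 94.4 and 119 CPM on days 0, 3, 4, 5 and 7. In the heme library, Idi1 stood at 39.3, 114, 151, 170 and 149 CPM. The libraries lay close together on days 0 and 3 and apart on days 4 and 5, and the gap was small again on day 7. The ratio was 1.11 (1.06 to 1.17) on day 3, 1.98 (1.88 to 2.09) on day 4, 1.80 (1.71 to 1.90) on day 5 and 1.26 (1.20 to 1.31) on day 7, the last of which equals a log2 ratio of 0.05 relative to all genes.

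Fdps encodes farnesyl diphosphate synthase, which joins the units to the precursor of squalene and of protein prenyl groups. Its level differed in course from that of the other genes. In the control library it stood at 63.2, 296, 196, 118 and 76.4 CPM on days 0, 3, 4, 5 and 7, and in the heme library at 48.1, 219, 207, 102 and 103 CPM. Both libraries had their highest level on day 3, and the heme library was lower on days 0, 3 and 5 and higher on days 4 and 7. The log2 ratio relative to all genes was -0.70, -0.68, -0.15, -0.41 and 0.16 over these days in turn. Relative to its own day 3 ratio, Fdps had 0.53 (0.46 to 0.60), 0.27 (0.18 to 0.36) and 0.84 (0.75 to 0.93) on days 4, 5 and 7.

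Fdft1 encodes squalene synthase and Sqle squalene epoxidase, which commit the pathway to sterols. Fdft1 stood at 12.4, 33.4, 29.0, 32.9 and 35.4 CPM in the control library on days 0, 3, 4, 5 and 7, and at 12.6, 43.2, 62.4, 58.9 and 65.8 CPM in the heme library. Sqle stood at 20.5, 43.7, 40.2, 42.4 and 46.2 CPM in the control library and at 28.7, 68.0, 89.9, 92.2 and 113 CPM in the heme library. For both genes the control library stayed near its day 3 level, and every heme culture after day 3 exceeded every control culture. The ratio of Fdft1 was 2.16 (1.98 to 2.35) on day 4 and 1.86 (1.73 to 2.00) on day 7, and that of Sqle was 2.24 (2.08 to 2.41) and 2.45 (2.30 to 2.60). Since the Sqle ratio was already 1.56 (1.45 to 1.67) on day 3, its log2 ratio divided by day 3 was 0.54 on day 4 and 0.62 on day 7.

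Lss encodes lanosterol synthase, which closes the sterol ring, and Cyp51 the lanosterol demethylase that follows it. Lss had few UMIs: it stood at 5.98, 8.64, 6.60, 7.97 and 9.44 CPM in the control library and at 7.28, 11.2, 17.5, 17.6 and 21.1 CPM in the heme library on days 0, 3, 4, 5 and 7. Its ratio was 1.30 (1.11 to 1.53) on day 3, 2.65 (2.22 to 3.17) on day 4 and 2.24 (1.95 to 2.57) on day 7. The intervals of days 4 and 7 lay above that of day 3. Cyp51 stood at 18.1, 52.8, 46.9, 62.3 and 72.4 CPM in the control library and at 26.3, 67.9, 114, 133 and 157 CPM in the heme library. Its ratio was 1.29 (1.20 to 1.37) on day 3, 2.44 (2.28 to 2.60) on day 4, 2.14 (2.01 to 2.28) on day 5 and 2.17 (2.06 to 2.28) on day 7. Cyp51 is itself a heme-containing enzyme.

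Insig1 encodes the endoplasmic reticulum protein that retains SCAP and SREBP2, and its gene is itself a target of SREBP2. It stood at 12.4, 30.8, 26.6, 30.8 and 30.9 CPM in the control library on days 0, 3, 4, 5 and 7. In the heme library it stood at 19.6, 46.8, 58.7, 51.9 and 73.1 CPM. The control levels of days 3 to 7 lay within a narrow range, and all heme cultures from day 3 on were above it. The ratio was 1.52 (1.40 to 1.65) on day 3, 2.21 (2.02 to 2.42) on day 4, 1.68 (1.53 to 1.85) on day 5 and 2.37 (2.20 to 2.56) on day 7. Relative to its day 3 ratio, the log2 ratio of day 5 was 0.19 (0.01 to 0.37), the lowest of the 8 genes on that day.

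Within each library, the largest step came before heme. It starts from the cells kept on day 0, which were a minority of the hashtagged cells of that day in the control library. From day 0 to day 3, the median log2 change of the 8 genes relative to all genes was 1.74 (control) and 1.79 (heme). In both libraries, 7 of 7 members tested were higher past 1.5-fold on day 3, against 25.5% of all genes in the control and 23.9% in the heme library. The libraries differed from day 3 to day 4, where the control library had a median change of -0.10 and the heme library one of 0.60. In the heme library, 4 of 8 members rose past 1.5-fold over this day (Hmgcs1 by 0.97, Cyp51 by 0.88, Lss by 0.77 and Fdft1 by 0.66 on the log2 scale), as did 9.2% of all genes, and in the control library 0 of 7 did (6.8% of all genes).

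Median changes over the later steps were smaller. The median change was 0.15 from day 4 to 5 and 0.16 from day 5 to 7 in the control library, and -0.09 and 0.16 in the heme library. Fdps fell past 1.5-fold from day 3 to day 7 in both libraries, by 1.91 in the control library and by 1.08 in the heme library on the log2 scale. In these libraries 15.2% and 14.0% of all genes were lower past 1.5-fold over this time. Over the same time, 6 of 8 members rose past 1.5-fold in the heme library (17.0% of all genes), without Idi1 and Fdps. In the control library 0 of 7 did (19.1% of all genes), and the highest value was that of Cyp51 with 0.51.

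The cultures were mixtures, and in summed levels fewer cells of a type and less RNA per cell cannot be told apart. Cells were therefore also sorted by the marker list with the highest mean z-score. These lists mark macrophages (Adgre1, Mrc1, C1qa and others), monocytes (Ly6c2, Ccr2, Vcan, F13a1), dendritic cells (Ccr7, Fscn1, Ccl22 and others), neutrophils (S100a8, Camp, Ngp and others) and granulocyte-monocyte progenitors (Elane, Mpo, Prtn3 and others). They define ranges of scores and not cell types, 21.2% of the cells stayed without a class, and 7.12% lay within 0.05 of the class margin. Only classes with 50 or more cells in both libraries were compared.

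On days 4 and 5, the median log2 ratio of the 8 genes, again relative to all genes of the whole cultures, was above 0.5 in each of the classes compared. In cells led by monocyte markers it was 0.08 on day 3, 1.39 on day 4 (147 heme and 220 control cells), 0.94 on day 5 and 0.76 on day 7. With macrophage markers leading, it was 0.31 on day 3 (82 and 76 cells), 0.86 on day 4, 0.58 on day 5 and 0.81 on day 7 (965 and 997 cells). Cells led by neutrophil markers gave 0.19 on day 3, 1.02 on day 4 (1675 and 1163 cells) and 0.74 on day 5. The control library had 46 such cells on day 7, under the minimum. For dendritic cell markers the values were 0.99 on day 4 (71 and 73 cells) and 1.05 on day 5 (113 and 260 cells), and too few cells were left on day 7. Hmgcs1 and Cyp51 were higher in the heme library in all 4 classes on days 4 and 5. Before heme (day 3), macrophage-marker cells had ratios of 2.16 (1.65 to 2.85) for Cyp51 and 1.63 (1.28 to 2.09) for Hmgcs1. Over days 4, 5 and 7 these became 2.86, 2.06 and 2.14 for Cyp51, and 2.64, 2.40 and 2.71 for Hmgcs1. The Cyp51 ratio was thus no higher on days 5 and 7 than before heme. Monocyte-marker cells had 1.25 and 1.31 on day 3, and neutrophil-marker cells 1.44 and 1.98 (Cyp51 and Hmgcs1). Class ratios were not divided by those of day 3. In the monocyte class on day 4, Hmgcs1 stood at 35.8 CPM in the control and 178 CPM in the heme library, a ratio of 4.97 (4.09 to 6.07), and Cyp51 at 47.7 and 181 CPM, a ratio of 3.80 (3.19 to 4.55).

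**Figure D2:**
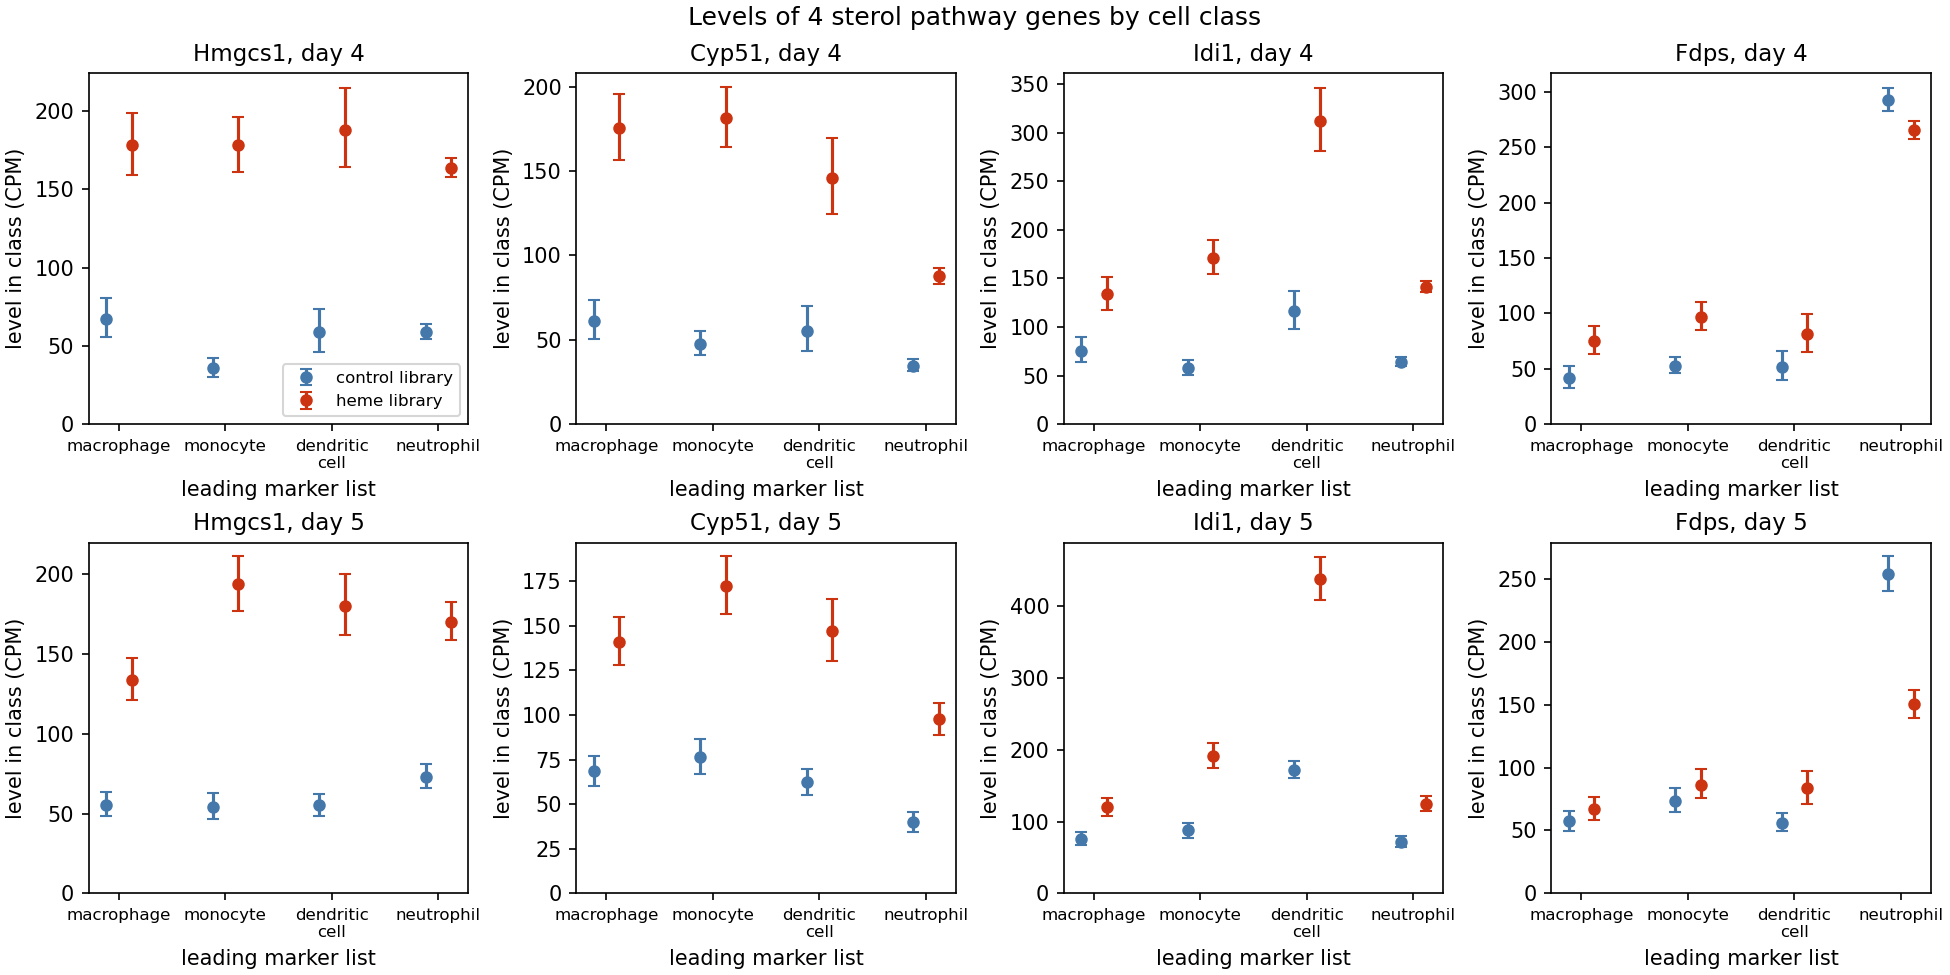
Level of Hmgcs1, Cyp51, Idi1 and Fdps (CPM within the class, y axis from 0, scale per panel) on days 4 and 5 in cells grouped by their leading marker list (x axis), in the control library (blue) and the heme library (red), with 95% counting intervals. Idi1 reached 438 CPM in dendritic cell-marker cells of the heme library on day 5, and Fdps 293 CPM in neutrophil-marker cells of the control library on day 4.

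On days 4, 5 and 7, Idi1 had its highest levels of the 4 classes in dendritic cell-marker cells. In the control library it stood at 116 CPM in dendritic cell-marker cells on day 4, at 172 CPM on day 5 and at 202 CPM on day 7, where macrophage-marker cells had 93.1 CPM. Progenitor-marker cells, outside these 4 classes, had 122 CPM of Idi1 in the control library on day 4. In the heme library, dendritic cell-marker cells had 312 CPM of Idi1 on day 4 and 438 CPM on day 5, so the ratios were 2.68 (2.21 to 3.27) and 2.54 (2.30 to 2.81). On day 7, when Idi1 of the whole cultures differed least, the 7 dendritic cell markers summed to 1207 CPM in the control and 144 CPM in the heme library, with no marker at 0 in either. On day 4 these sums were 281 and 383 CPM, and on day 5 they were 884 and 702 CPM. The part of this difference in the Idi1 ratio of day 7 was not tested, and within the macrophage class of that day the ratio was 1.42 (1.32 to 1.52).

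Fdps was high where neutrophil and progenitor markers led. On day 3, the control library had 503 CPM of Fdps in neutrophil-marker cells and 437 CPM in progenitor-marker cells, against 66.3 CPM with monocyte and 90.6 CPM with macrophage markers. On day 4, Fdps of macrophage-marker cells was 41.8 CPM in the control and 75.1 CPM in the heme library, a ratio of 1.80 (1.35 to 2.41). In neutrophil-marker cells it was 293 and 265 CPM on that day, a ratio of 0.91 (0.86 to 0.95). On day 7, macrophage-marker cells had a ratio of 0.95 (0.88 to 1.03), whereas the whole cultures had 1.35 (1.28 to 1.43). The 8 neutrophil markers summed to 4395 CPM in the control and 29684 CPM in the heme library on day 7, with no marker at 0, and their part in the Fdps ratio of that day was not tested.

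Dividing cells were examined because growing cells need sterols for new membranes. Cells with a UMI of Mki67 or Top2a, both transcribed in cycling cells, gave a median log2 ratio of 0.94 on day 4, 0.81 on day 5 and 0.69 on day 7. The remaining cells gave 0.95, 0.72 and 1.03. On day 4, the 8 genes summed to 493 CPM in the control and 909 CPM in the heme library with such a UMI, and to 428 and 793 CPM without one. The higher level in the heme library was present with and without these transcripts. The 2 groups also differed in depth. On day 4, the median was 15556.5 (control) and 12815 UMIs (heme) per cell with such a UMI, and 6940 and 6935 UMIs without. Shallow cycling cells can therefore lie among the remaining cells, so this split does not separate dividing from resting cells. On day 7, such a UMI was found in 34.6% of the cells kept from the control library and in 51.8% of those kept from the heme library. These shares were not brought to a common depth. Of 8 proliferation genes, 0 were higher past 1.5-fold on that day (15.7% of all genes) and 3 were lower (19.6% of all genes), which were Tyms (-1.15), Cdk1 (-1.08) and Birc5 (-0.95). On day 3 these 3 had -0.78, -0.75 and -0.65. Mki67, named after its values were seen, had a log2 ratio of 0.42 on day 7.

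The transcripts were spread over many cells. Cells with 1 or more UMIs of the 8 genes made up 97.2% of the kept cells in both libraries on day 3, 88.9% in the control and 96.1% in the heme library on day 4, and 89.5% and 94.7% on day 7. After thinning each cell to 5000 UMIs and leaving out shallower cells (74 to 702 per day in the control and 103 to 532 in the heme library), Hmgcs1 was found in 22.7% (control) and 34.7% (heme) of the cells on day 3, in 21.2% and 48.8% on day 4, and in 25.8% (24.1% to 27.7%) and 54.5% (52.2% to 56.9%) on day 7, with exact binomial intervals. The median depth per cell was 12029 and 13627 UMIs on day 7. Without thinning, these shares were 47.8% and 64.7%, 39.2% and 67.7%, and 45.7% and 73.6%. Thinned Cyp51 was found in 22.0% and 26.5% of the cells on day 3 and in 27.6% and 49.0% on day 7. No class among these cells is known to lack the genes, so a share due to free RNA could not be read from them.

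Some of the other enzymes of the pathway were higher in the heme library after day 3, and the medians of these enzymes were lower than those of the 8 members. Members and lists were chosen with earlier results of these data known, so this gap in medians is a description only. Of 14 further sterol pathway enzymes, 6 of 12 tested on day 4 were higher past 1.5-fold (10.4% of all genes) and 1 was lower (17.9%), with a median log2 ratio of 0.56. On day 5, 5 of 12 were higher (10.8% of all genes) and 1 lower (15.8%), with a median of 0.39. On day 7, 3 of 13 were higher (15.7% of all genes) and 0 lower (19.6%), with a median of 0.37. Before heme, on day 3, 0 of 13 were higher (7.7% of all genes) and 1 lower (14.0%), with a median of 0.05. The 3 with the largest difference on day 7 were Hsd17b7 (1.33), Acat2 (0.60) and Msmo1 (0.59), which encode a sterol ketone reductase, the cytosolic acetoacetyl-CoA thiolase that opens the pathway and a sterol methyl oxidase. Ebp, a sterol isomerase, was the enzyme that was lower past the limit on days 3, 4 and 5, with -0.83, -0.72 and -0.63. Divided by day 3, the median of the 14 enzymes was 0.59 on day 4, 0.48 on day 5 and 0.35 on day 7, and 14, 14 and 12 of them lay above 0. Ebp was named after its values were seen.

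**Figure D3:**
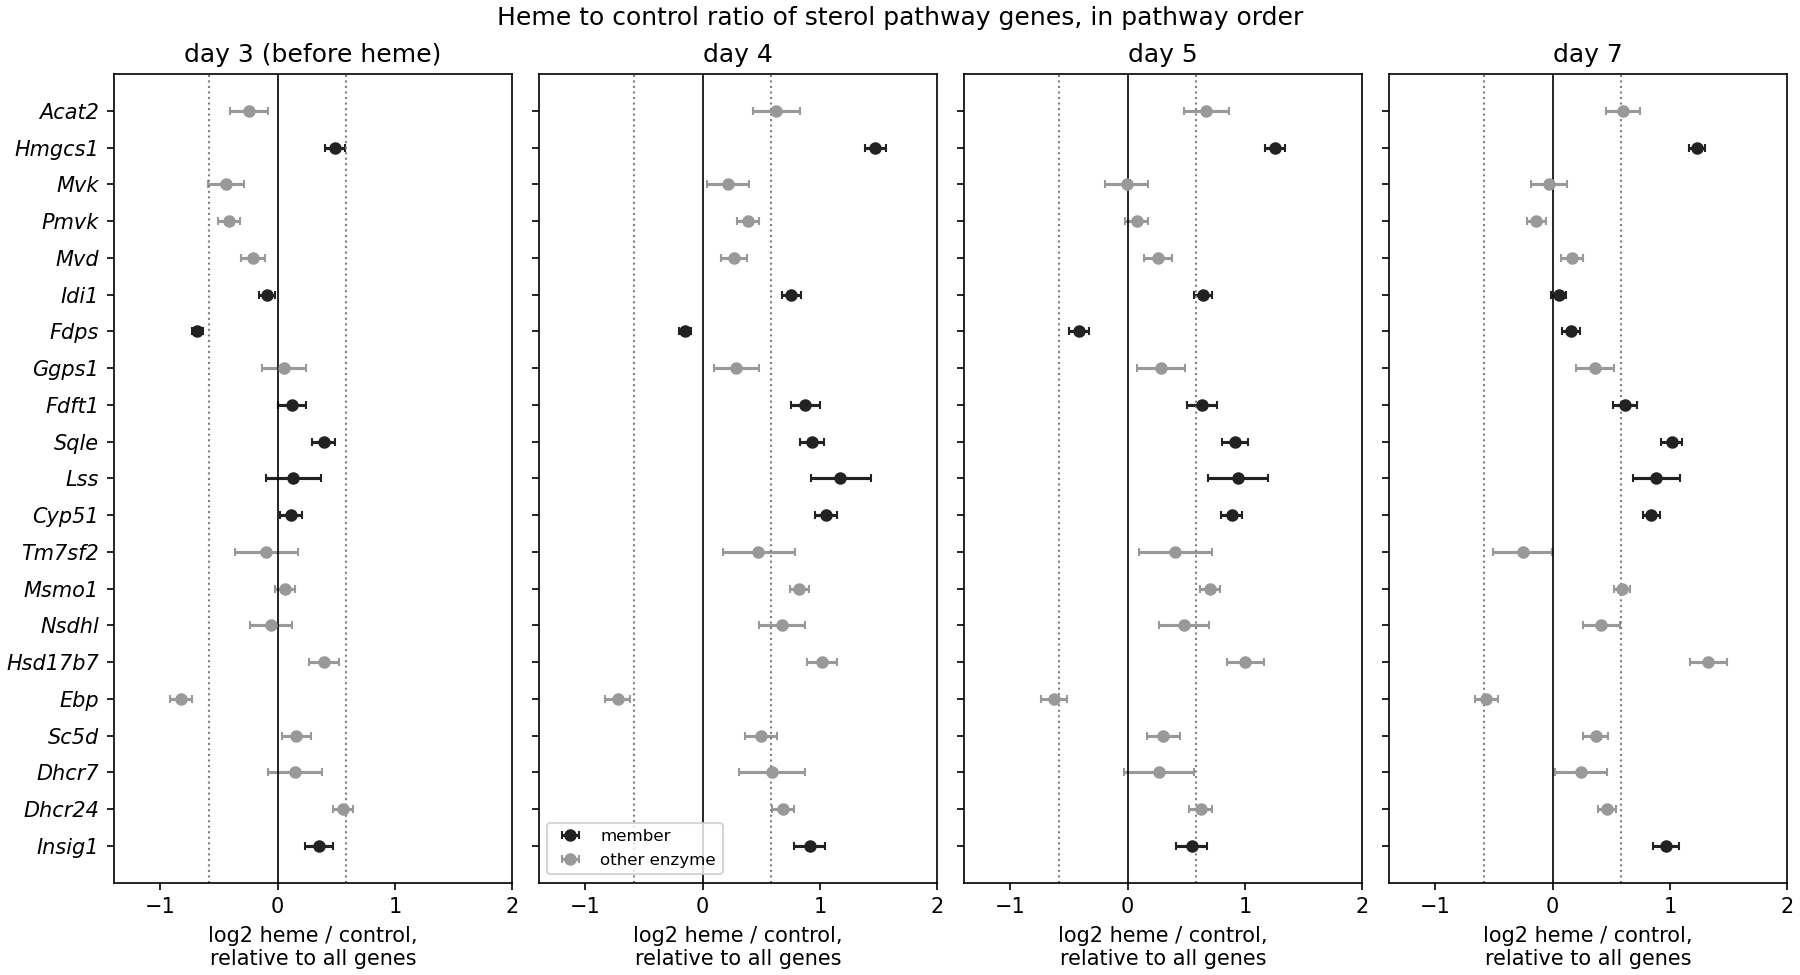
Log2 ratio of heme to control relative to all genes (x axis) for the 8 members (black) and 13 other enzymes (grey) in pathway order from top to bottom, with Insig1 last, on days 3, 4, 5 and 7; bars are 95% counting intervals and dotted lines mark 1.5-fold. On day 3 the members had a median of 0.13, and on days 4, 5 and 7 the medians were 0.92, 0.76 and 0.86.

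Of the genes of SREBP control and sterol uptake, 9 were tested on day 7, without Scap. Of these, 4 were higher past 1.5-fold (15.7% of all genes) and 0 lower (19.6%). On day 3, 0 of 10 were higher (7.7% of all genes) and 0 lower (14.0%), and on day 0, 6 of 10 were higher (16.2%) and 0 lower (18.0%). Npc1, which exports cholesterol from lysosomes, stood at 28.6 and 40.0 CPM on day 3 and at 39.1 and 119 CPM on day 7 in the control and the heme library, a log2 ratio of 1.33 on day 7. Mbtps2, a protease that cleaves SREBP, had a log2 ratio of 0.51 on day 3 and 0.94 on day 7, and Stard4, a sterol carrier, 0.41 and 0.83. Srebf2, which encodes SREBP2, had 0.24 on day 3 and 0.15 on day 7. Divided by day 3, the medians of this list were 0.18, 0.08 and 0.01 on days 4, 5 and 7, below those of the 8 members. Srebf2 was named after its values were seen.

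Of 7 genes listed as LXR targets or as genes of cholesterol efflux, 5 had a mean under 10 CPM on days 3, 4 and 5. Abca1, the cholesterol efflux pump and a target of LXR, stood at 2.42, 2.38, 5.10, 12.1 and 33.7 CPM in the control library on days 0, 3, 4, 5 and 7 and at 9.48, 3.04, 0.40, 1.39 and 1.74 CPM in the heme library. Its log2 ratio was -4.55 on day 7. Pltp, a phospholipid transfer protein and another target of LXR, stood at 64.6 CPM in the control and 2.75 CPM in the heme library on day 7, and Lpcat3 at 40.5 and 85.2 CPM. Of 5 genes of this list tested on day 7, Lpcat3 was higher past 1.5-fold (15.7% of all genes) and Abca1 and Pltp were lower (19.6%). The median log2 ratio of these 5 genes was 0.16, with 3 above 0 and 2 below. Abcg1, named after its values were seen, stood at 114 CPM in the control and 171 CPM in the heme library on that day. Abca1 and Pltp passed the minimum of 10 CPM on that day through their level in the control library and had a mean below it on days 0, 3, 4 and 5. Ch25h, which makes 25-hydroxycholesterol, stood at 4.99 and 47.1 CPM on day 7 and passed the minimum through the heme library. Soat1, which esterifies cholesterol, stood at 167 and 320 CPM, a log2 ratio of 0.67.

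**Figure D4:**
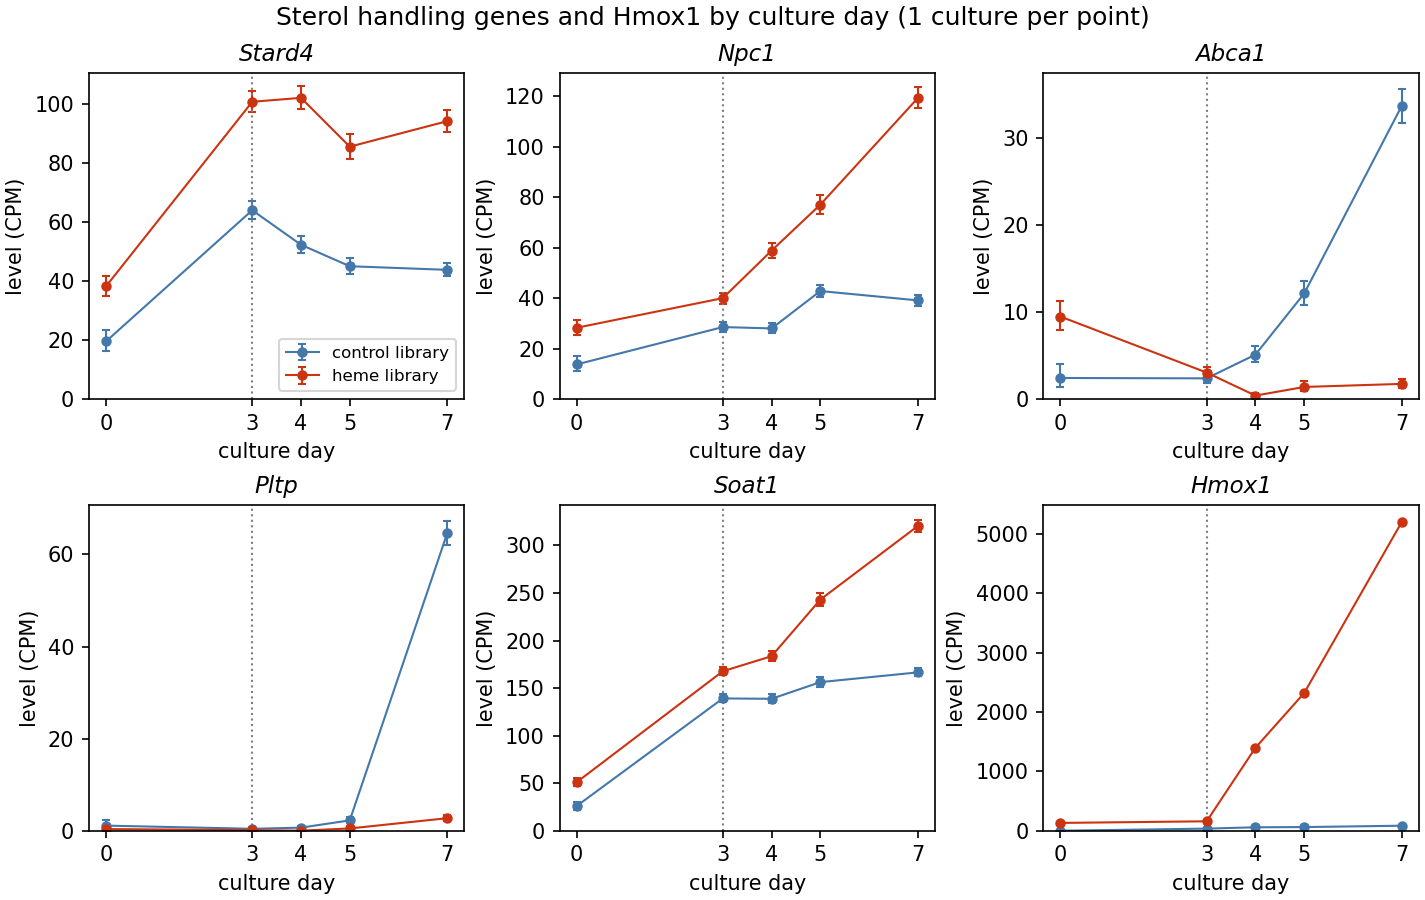
Level (CPM, y axis from 0, scale per gene) of Stard4, Npc1, Abca1, Pltp, Soat1 and Hmox1 by culture day (x axis) in the control library (blue) and the heme library (red), with 95% counting intervals and a dotted line at day 3, when heme was added. Abca1 reached 33.7 CPM in the control library on day 7 and stayed at 1.74 CPM in the heme library, while Npc1 stood at 39.1 and 119 CPM.

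Genes of fatty acid synthesis are controlled by SREBP1. Of 8 such genes, 2 were higher (15.7% of all genes) and 1 was lower (19.6%) past 1.5-fold on day 7, and the median log2 ratio was -0.01. The 3 with the largest difference were Scd1 (-1.65), Elovl6 (1.30) and Fads1 (1.02), which encode a desaturase of saturated fatty acids, an elongase and a desaturase of polyunsaturated fatty acids.

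Over the 10 library and day combinations, 7 of the 8 genes followed each other closely. Pearson's r of log2(CPM + 1) with the mean of the 7 others, each standardised, was 0.99 for Fdft1, 0.98 for Insig1, Hmgcs1 and Sqle, 0.97 for Cyp51, 0.95 for Idi1, 0.87 for Lss and 0.42 for Fdps. These points share libraries and depth, and the low levels of day 0 weigh on them. Among genes outside the list, the 5 most like the mean of the 8 were Atp6v1a (0.98), a proton pump subunit, Atrnl1 (0.98), Srd5a3 (0.98), a polyprenol reductase, Ypel5 (0.98) and Rab1a (0.98), a GTPase of transport from the endoplasmic reticulum to the Golgi, out of 7889 genes. Atp6v1a stood at 153 and 213 CPM on day 3 and at 122 and 333 CPM on day 7 in the control and the heme library.

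Some members share sequence with other genes, and the sources do not state whether strand was used in counting. The last 500 transcript bases of Fdps resemble those of 7 other annotated genes at 90% identity or more over at least 100 bases, so part of its reads could have been set aside or assigned elsewhere. One of these genes (Gm43738) is in the matrices and had at most 3 UMIs in any library and day. All 500 bases of the Fdft1 tail also lie in Ctsb on the opposite strand. Ctsb had log2 ratios between -0.01 and 0.21 on the 5 days, against 0.62 to 0.88 for Fdft1 on days 4, 5 and 7. Cyp51 overlaps Akap9 on the opposite strand over 166 bases, and Akap9 had log2 ratios between -0.24 and 0.51 on the 5 days, against 0.84 to 1.05 for Cyp51 on days 4, 5 and 7. The Lss tail resembles 4930483K19Rik on the opposite strand at 99.1% identity over 109 bases, a gene that is not in the matrices.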

How the data were processed

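Values in the deposited matrices are raw counts of UMIs for each gene and cell barcode, which the authors obtained from Cell Ranger. The submitters' processing notes name version 4.0.0 and GRCm38.p6, and the matrix headers name version 5.0.0. The deposited hashtag calls were made by the authors with HTODemux in Seurat 3.2.3. Barcodes with several hashtags (1259 control, 1996 heme) or none (652, 1218) were left out, and no further doublet removal was applied. Of 12050 and 14164 cells with 1 hashtag, those with 500 to 5000 genes, under 15% mitochondrial and under 30% ribosomal protein UMIs were kept (9684 and 9941). Although the methods of the study state the mitochondrial and ribosomal limits as minimums, these were taken as maximums.

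UMIs were summed by library and day and scaled to CPM. For log2 ratios and fold limits, ratios were divided by the median ratio of genes with a mean of 10 CPM or more. A value past 1.5-fold relative to it counted as a difference. Ratios given with Poisson intervals were not divided by it. No p-values were computed, since each group had 1 library. Pairs of counts have exact Poisson intervals, shares have Clopper-Pearson intervals, and ratios divided by day 3 have normal intervals on the log scale, all at 95%. The ratio and its interval were tested on simulated Poisson counts, which hold no variation between cells, cultures or libraries. That test therefore checks the calculation and not the error between cultures. Cells took the class of the marker list with the highest mean z-score, at a margin of 0.25 to the next. Python 3.11.15, numpy 2.4.6, scipy 1.17.1, pandas 2.3.3, edgeR 4.0.16 and DESeq2 1.42.0 (scaling factors only) and BLAST+ 2.17.0 were used.

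The members and gene lists were chosen with earlier results of these data known. Named besides the 8 members were Hmox1, the 3 genes of each other list with the largest difference on day 7, and the 5 genes most alike in course. Alternatives were other cell filters, scaling by total UMIs, TMM or DESeq2 factors, another minimum for the reference genes, equal weight per cell, division by day 3 and a 2-fold limit. Applying them to the counts of members was added after seeing the data. Some genes of these lists are counted but not reported singly here.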

Additional observations from a re-analysis of the deposited data

How the results depend on the processing

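The median log2 ratio of the 8 genes stayed above 0 on days 3, 4, 5 and 7 under every alternative run. Before division by day 3, it ranged from -0.05 to 0.38 on day 0, 0.06 to 0.37 on day 3, 0.87 to 1.15 on day 4, 0.72 to 0.97 on day 5 and 0.66 to 1.14 on day 7. Scaling by total UMIs gave 0.37, 1.15, 0.97 and 1.14 on days 3, 4, 5 and 7, division by day 3 gave 0.80 and 0.67 on days 4 and 7, and equal weight per cell gave 0.66 on day 7. The change from day 3 to 4 in the heme library was 0.77 with all singlet barcodes and also without the upper limit of genes, against 0.60. At 2-fold, 3, 1 and 2 members were higher on days 4, 5 and 7, and 0 were higher or lower on day 0 and 0 lower on day 3. With total UMIs, 2 members were higher and 0 lower on day 0, and 3 higher and 0 lower on day 3. With equal weight per cell, 0 were higher on day 0. Under TMM and DESeq2 factors, no median left its interval and no count moved by over 1.5 times. Among the ratios of single members, 33 left their counting interval with total UMIs and 19 on division by day 3, and no difference past 1.5-fold changed its sign. Without a margin between classes, the summed level moved in 2 classes and days and did not in 16. No paired analysis was possible because each group was 1 library. Depth limits Lss most, with 37 UMIs in the smallest culture.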
